A study of Mus musculus with 2 samples.

Results

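The genes of megalin and cubilin endocytosis are 10 genes for protein uptake in the renal proximal tubule, chosen by symbol: Lrp2, Cubn, Amn, Lrpap1, Dab2, Ap2a2, Clcn5, Ocrl, Rab11a and Ehd1. All 10 were among the 20002 genes of the table, and all 10 passed a filter of at least 10 scaled reads in 1 library, as did 17469 genes in all. The study examined Regnase-2, an RNase that degrades mRNA and is encoded by Zc3h12b, in mouse kidney injury, with RNA-seq of the kidney in 1 library labelled CKO and 1 control library. CKO mice were C57BL/6J mice given AAV9, an adeno-associated virus, that carried shRNA against Regnase-2. CKO therefore names a knockdown here, although the labels call these mice a conditional knockout of the proximal tubule. The virus was given through the tail vein at 11 weeks of age, and the methods describe AAV9 as favouring proximal tubules. Control mice received AAV9 described in one place of the methods as an empty vector and in another as control shRNA. The RNA-seq methods give an age of 14 weeks for the kidneys, whereas the AAV9 methods give harvest at 16 weeks. The source is whole kidney by the labels and left kidney tissue by the methods, and the sources used here do not say how many mice went into each library.

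In the proximal tubule, small proteins that pass the glomerular filter are bound at the brush border by megalin, a giant receptor of the LDL receptor family, and by cubilin, a peripheral membrane protein held at the surface by amnionless. Adaptors gather the receptors into clathrin-coated pits. Endosomes are then acidified, the cargo is released for breakdown in lysosomes, and the receptors return to the surface through recycling tubules. Inherited loss of CLCN5 or OCRL causes Dent disease with low-molecular-weight proteinuria, loss of CUBN or AMN causes Imerslund-Gräsbeck syndrome, and loss of LRP2 causes Donnai-Barrow syndrome.

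The deposited values were whole numbers, the lowest being 35 for the control and 51 for CKO. They were taken as reads plus a constant, an inference from the values, and 34 and 50 were subtracted. The depth was then 38851231 control reads and 43588721 CKO reads. Scaled reads are CKO reads times 0.667, the median of control reads divided by CKO reads over all genes. The log2 ratio is that of scaled CKO reads to control reads, each with a pseudocount of 1. With 1 library per group, no difference has a replicate check and no test between the groups was made. Log2 ratios and shares have 95% Clopper-Pearson intervals, ratios between genes have 95% Woolf intervals, and both cover counting error only.

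Zc3h12b, the target of the shRNA, had 47 control reads and 59 CKO reads, with a log2 ratio of -0.25 (interval -0.83 to 0.33). A difference was not detectable at this depth, and the ratio rose to 0.16 when the library totals were made equal. The target therefore does not check the label, and every direction given here is that of the library labelled CKO. Havcr1, which encodes kidney injury molecule 1, had 1639 and 21332 reads, and Lcn2, which encodes the injury marker NGAL, had 28 and 3797, so both were higher in the library labelled CKO.

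Of the 10 endocytosis genes, 8 had a log2 ratio below 0, against 48.3% of the 17469 genes, but this number was 6 with equal totals, 4 with the values as deposited and 3 with the median of the proximal tubule markers set to 0, against 20.3%, 8.34% and 8.86% of all genes. At least 1.5-fold lower were 4 genes, Lrpap1, Amn, Lrp2 and Ehd1, against 13.9% of all genes. This number was 1 with equal totals, against 5.38% of all genes. It was 0 with the values as deposited, against 1.52%, and 0 with the proximal tubule markers set to 0, against 2.65%. At least 2-fold lower was 1 gene, Lrpap1, against 5.35% of all genes. None of the 10 was at least 1.5-fold higher with the scaling used, against 21.8% of all genes. Ocrl and Rab11a passed this threshold in the values as deposited, against 48.1% of all genes. The same 2 passed it with the proximal tubule markers set to 0, against 65.5%. The median log2 ratio of the 10 genes was -0.46, beside 0.022 for all genes.

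Scaling moved all genes together. With equal totals the median of all genes was 0.44, and 88.1% of the genes past 1.5-fold were higher in the library labelled CKO, compared with 61.1% under the scaling used. Relative to the median of all genes the endocytosis genes stood at a median of -0.49 with either scaling. Set against that median, 8 of the 10 genes were lower, where all genes are split evenly by construction, and 4 were lower by at least 1.5-fold, against 14.5%. A scaling factor cancels in this comparison, so the scaling settings do not test it. Lower and higher refer below to the scaling used, and for the endocytosis genes a change of sign under another scaling is given.

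With the scaling used, abundant genes as a class were lower in the library labelled CKO. The median log2 ratio was 0.29 in the lowest decile of the genes by mean level and -0.36 in the highest decile. Lrp2, Cubn, Lrpap1, Dab2, Ap2a2, Clcn5 and Ehd1 belonged to the highest decile, Amn and Rab11a to decile 9 and Ocrl to decile 7. Within the highest decile, 31.9% of 1747 genes were at least 1.5-fold lower. With the median of that decile set to 0, a setting added after the data were seen, the median of the 10 endocytosis genes was -0.10. Below 0 were 8 of the 10, against 23.3% of all genes, with Cubn and Ap2a2 each at -0.011. Genes of the highest decile were split evenly around 0 by construction, while the median of all genes was 0.38. At least 1.5-fold lower was 1 gene, Lrpap1, against 6.03% of all genes.

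**Figure D1:**
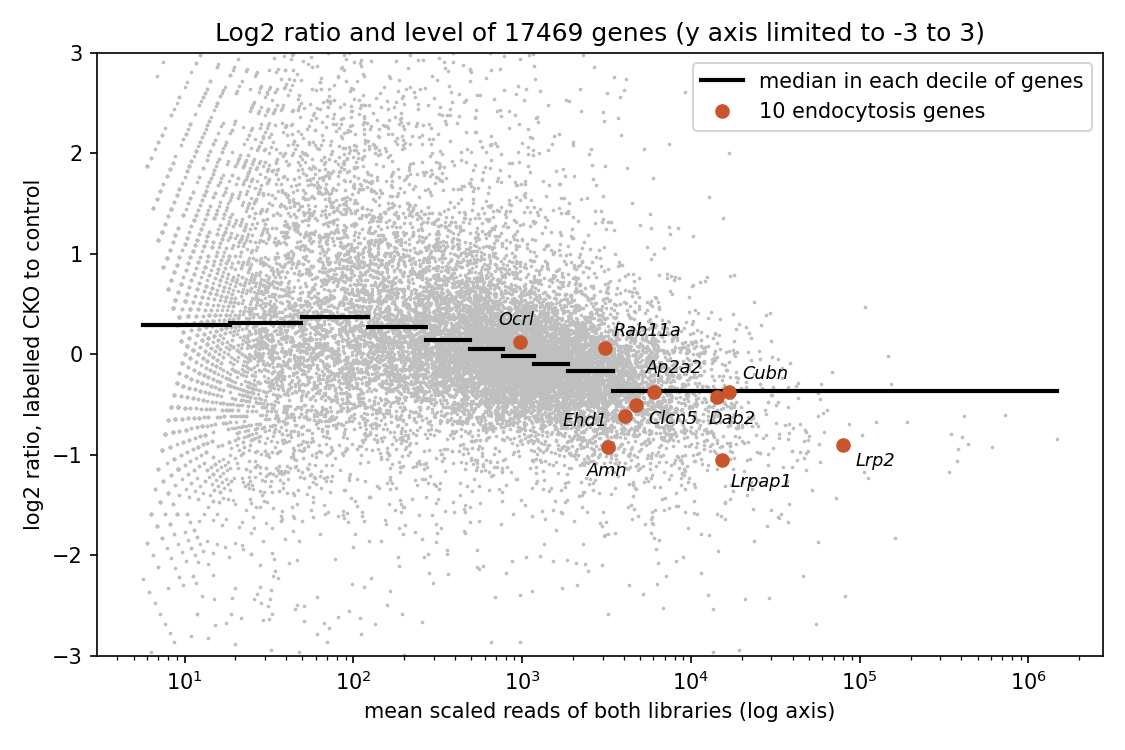
Each grey point is 1 of 17469 genes, with the mean scaled reads of both libraries on a log axis and the log2 ratio of the library labelled CKO to the control, limited to -3 to 3. Black bars mark the median of each decile of genes, from 0.29 in the lowest to -0.36 in the highest, and the orange points are the endocytosis genes, of which Lrp2, Amn and Lrpap1 lie well under the bar of their decile.

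Lrp2 encodes megalin and lies at chr2:69424340-69586065 on the minus strand of GRCm38 in GENCODE M21, with 79 exons in its longest coding transcript. It had 103389 control reads and 82681 CKO reads, or 55121 after scaling. The log2 ratio was -0.91 (interval -0.92 to -0.89), and 6.54% of all genes had a lower one. Megalin mRNA alone made up 0.266% of control reads (interval 0.264 to 0.268) and 0.190% of the reads labelled CKO (interval 0.188 to 0.191), so its share of the library was lower too. It stayed below 0 under every scaling, at -0.14 with the proximal tubule markers set to 0.

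Cubn encodes cubilin and lies at chr2:13276338-13491813 on the minus strand, with 67 exons. It had 19097 control reads and 22134 CKO reads, or 14756 after scaling. Its log2 ratio was -0.37 (interval -0.40 to -0.34), close to the median of the highest decile of genes, and its sign changed to 0.047 with equal totals, to 0.21 in the unscaled deposited values and to 0.40 with the proximal tubule markers set to 0. The ratios of the receptors were thus unequal. The ratio of Lrp2 to Cubn reads within a library, which no scaling between libraries can move, was 5.41 for control and 3.74 for CKO, a change by a factor of 0.690 (interval 0.675 to 0.705).

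Amn encodes amnionless, the transmembrane protein that carries cubilin to the apical surface and holds it there, and lies at chr12:111271095-111276426 on the plus strand. It had 4239 control reads and 3358 CKO reads, or 2239 after scaling. The log2 ratio was -0.92 (interval -0.99 to -0.86), on the scale of Lrp2 rather than of Cubn, its partner. There were 4.51 Cubn reads for each Amn read in control and 6.59 in CKO, a change by a factor of 1.46 (interval 1.39 to 1.54). Per kilobase of the longest coding transcript, Amn was above Cubn in the control, with 2492 against 1696 reads. In the library labelled CKO they had 1316 and 1310 scaled reads per kilobase, with counting intervals that overlapped.

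Lrpap1 encodes the receptor-associated protein RAP, the chaperone of the endoplasmic reticulum that keeps ligands off megalin until it leaves, and lies at chr5:35091501-35105766 on the minus strand. It had 20666 control reads and 14956 CKO reads, or 9971 after scaling, a log2 ratio of -1.05 (interval -1.08 to -1.02). This was the lowest ratio among the 10 genes, and 4.83% of all genes had a lower one. Of the pairs of genes compared within a library, receptor and chaperone changed least in proportion. There were 5.003 Lrp2 reads for each Lrpap1 read in control and 5.53 in CKO, a change by a factor of 1.11 (interval 1.08 to 1.13). Lrpap1 and Amn, like Lrp2, stayed below 0 under every scaling.

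**Figure D2:**
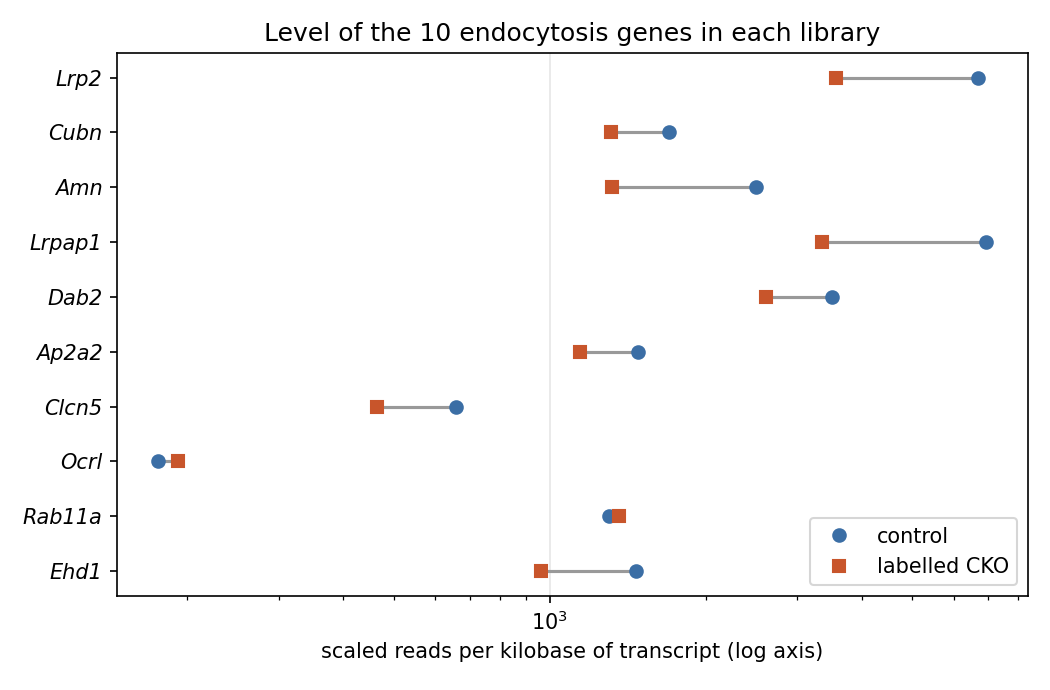
Scaled reads per kilobase of the longest coding transcript, on a log axis, for the 10 endocytosis genes in the control library (circles) and the library labelled CKO (squares). The lines are longest for Lrpap1, from 6933 to 3345, for Lrp2, from 6688 to 3565, and for Amn, from 2492 to 1316, and the order of the genes runs down to Ocrl at 175.9 and 191.6.

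Promoters are shown for these 3 genes, which were lower together, and for Cubn, whose ratio lay apart from that of its partner Amn. RefSeq sequences of GRCm38.p6 matched 9 of the 10 genes with 11 promoters of 300 bases, from 250 before to 50 after the RefSeq start. Ehd1, which was also at least 1.5-fold lower, had no promoter among them. The start of Cubn lies 63 bases upstream of the gene in GENCODE M21, so 0 bases of its window are inside that gene, while the start of Lrp2 lies 36 bases inside it. Capitals mark the GC box GGGCGG and the E box CACGTG, searched on both strands, so that CCGCCC is the GC box on the other strand. Matches of one motif did not overlap those of the other here. The windows lie at chr2:69585980-69586279 on the minus strand for Lrp2, chr5:35105650-35105949 on the minus strand for Lrpap1, chr12:111270846-111271145 on the plus strand for Amn and chr2:13491827-13492126 on the minus strand for Cubn.
Lrp2: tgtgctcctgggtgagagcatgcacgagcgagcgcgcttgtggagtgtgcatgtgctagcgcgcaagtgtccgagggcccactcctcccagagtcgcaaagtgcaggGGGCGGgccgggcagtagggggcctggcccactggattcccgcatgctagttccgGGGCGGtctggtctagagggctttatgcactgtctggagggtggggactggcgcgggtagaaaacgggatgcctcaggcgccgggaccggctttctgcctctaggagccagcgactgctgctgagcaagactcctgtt
Lrpap1: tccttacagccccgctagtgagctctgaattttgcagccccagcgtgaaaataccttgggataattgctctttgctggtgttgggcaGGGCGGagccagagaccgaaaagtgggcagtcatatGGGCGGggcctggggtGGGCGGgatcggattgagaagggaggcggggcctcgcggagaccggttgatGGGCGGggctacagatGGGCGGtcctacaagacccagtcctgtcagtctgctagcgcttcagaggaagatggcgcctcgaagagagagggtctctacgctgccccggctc
Amn: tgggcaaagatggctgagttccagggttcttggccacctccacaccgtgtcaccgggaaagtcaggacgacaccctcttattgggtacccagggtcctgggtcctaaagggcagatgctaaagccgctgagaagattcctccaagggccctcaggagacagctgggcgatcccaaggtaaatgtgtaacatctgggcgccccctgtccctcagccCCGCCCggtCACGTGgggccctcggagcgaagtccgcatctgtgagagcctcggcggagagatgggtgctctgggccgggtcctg
Cubn: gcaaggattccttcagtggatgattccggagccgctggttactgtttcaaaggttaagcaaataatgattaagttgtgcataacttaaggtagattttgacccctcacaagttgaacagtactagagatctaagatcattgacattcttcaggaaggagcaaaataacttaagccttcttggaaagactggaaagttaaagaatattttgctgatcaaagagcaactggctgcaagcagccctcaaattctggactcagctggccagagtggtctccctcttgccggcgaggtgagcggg

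The Lrp2 window held 2 GC boxes, that of Lrpap1 held 5, that of Amn held 1 beside its E box, and that of Cubn had neither set of letters. The GC content was 65.0% in the Lrp2 window, 61.3% for Lrpap1 and 62.3% for Amn, 44.3% for Cubn and a median of 52.7% over 32851 promoters. The window of Ap2a2 had 68.3% and 2 GC boxes, and that of Ocrl had 60.0%. No relation of GC content to the ratios was tested. The GC box was in 7 of the 11 promoters of the endocytosis genes and in 35.7% of all promoters. It was also in the windows of Ocrl and Rab11a, whose ratios were not below 0. The E box was in 1 of the 11 and in 7.15% of all. The Hnf1-type site GTTAAT was in 1 of the 11, a Dab2 promoter, and in 7.10% of all, and the Hnf4-type site CAAAGTCCA was in 0 of the 11 and in 0.475% of all. A match is a description of the letters in a window and not a site of binding.

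Dab2 encodes the adaptor that binds the cytoplasmic tail of megalin and links it to clathrin and AP-2, and lies at chr15:6299788-6440712 on the plus strand. It had 16288 control reads and 18214 CKO reads, or 12143 after scaling. The log2 ratio was -0.42 (interval -0.45 to -0.39), and it changed sign, to 0.16 in the unscaled deposited values and to 0.35 with the proximal tubule markers set to 0. Megalin was lower than its adaptor by more, since the ratio of Lrp2 to Dab2 reads went from 6.35 to 4.54, a factor of 0.715 (interval 0.699 to 0.732).

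Ap2a2, at chr7:141562173-141633011 on the plus strand, encodes an alpha subunit of AP-2, the adaptor complex of clathrin-coated pits. It had 6866 control reads and 7956 CKO reads, or 5304 after scaling, and a log2 ratio of -0.37 (interval -0.42 to -0.33). Its sign changed under the same settings as that of Cubn, to 0.047 with equal totals, to 0.21 in the unscaled deposited values and to 0.40 with the proximal tubule markers set to 0. Both adaptors thus lay near the median of the highest decile of genes.

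Clcn5 and Ocrl, both on the X chromosome, are the Dent disease genes. Clcn5, at chrX:7153810-7319358 on the minus strand, encodes ClC-5, a chloride-proton exchanger of early endosomes. It had 5527 control reads and 5837 CKO reads, or 3891 after scaling, and a log2 ratio of -0.51 (interval -0.56 to -0.45), which changed sign, to 0.082 in the unscaled deposited values and to 0.26 with the proximal tubule markers set to 0. Ocrl, at chrX:47912387-47965868 on the plus strand, encodes a phosphoinositide 5-phosphatase of endosomes and the Golgi. It had 924 control reads and 1510 CKO reads, or 1007 after scaling, and a log2 ratio of 0.12 (interval 0.0046 to 0.24), which was 0.54 with equal totals, 0.70 in the unscaled deposited values and 0.89 with the proximal tubule markers set to 0. The ratios of the Dent disease genes were thus unequal. There were 5.98 Clcn5 reads for each Ocrl read in control and 3.87 in CKO, a factor of 0.646 (interval 0.591 to 0.707).

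Rab11a, at chr9:64715299-64737758 on the minus strand, encodes the small GTPase of recycling endosomes that return megalin to the brush border. It had 3035 control reads and 4755 CKO reads, or 3170 after scaling, and a log2 ratio of 0.063 (interval -0.0032 to 0.13). This interval includes 0 but belongs to the scaling used, and the ratio was 0.48 with equal totals, 0.65 in the unscaled deposited values and 0.83 with the proximal tubule markers set to 0. Ehd1, at chr19:6276725-6300096 on the plus strand, encodes an ATPase that shapes recycling tubules. It had 4923 control reads and 4837 CKO reads, or 3225 after scaling, and a log2 ratio of -0.61 (interval -0.67 to -0.55), which changed sign to 0.16 with the proximal tubule markers set to 0. Its interval includes the threshold of 1.5-fold. Among paralogs of the members, chosen after their values were seen, Ehd2 was at 0.80, Ehd4 at 0.62 and Ehd3 at -0.29, and Rab11b was at -0.15.

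**Figure D3:**
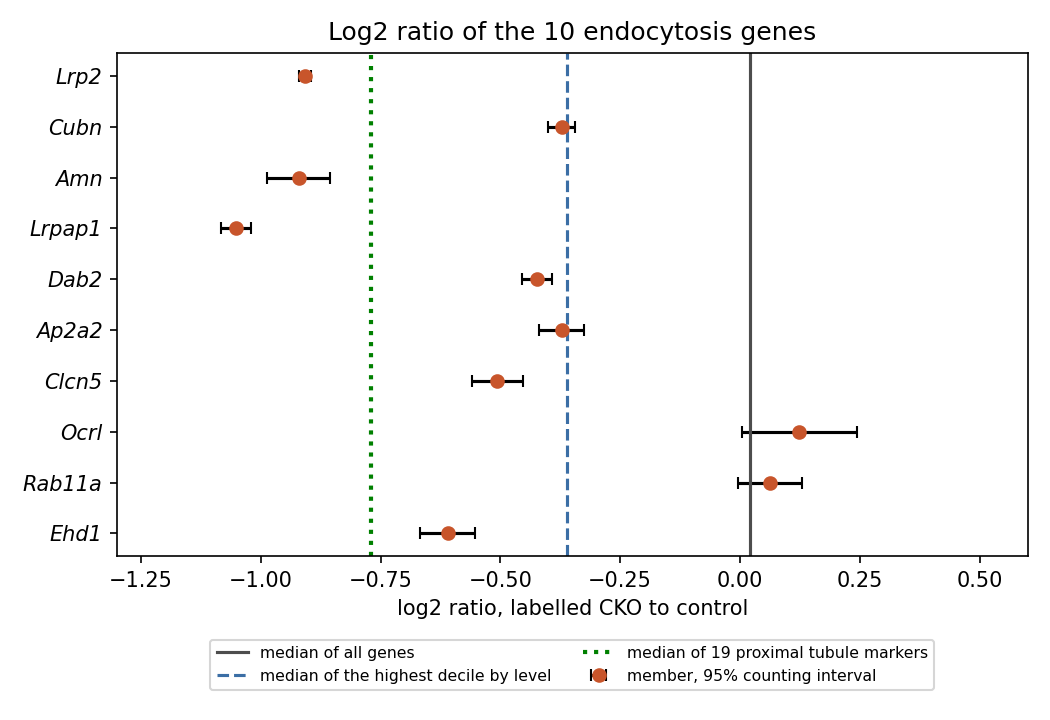
Log2 ratio of the library labelled CKO to the control for each endocytosis gene, with bars for the 95% Clopper-Pearson interval of counting error. The lines are the median of all genes at 0.022, of the highest decile by level at -0.36 and of 19 proximal tubule markers at -0.77, and Lrp2, Amn and Lrpap1 lie to the left of all 3 lines.

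In order of level per kilobase, the control library ran Lrpap1, Lrp2, Dab2, Amn, Cubn, Ap2a2, Ehd1, Rab11a, Clcn5 and Ocrl. Counting intervals of neighbours overlapped there for Ap2a2 and Ehd1 alone. In the library labelled CKO, Lrp2 was above Lrpap1, and Rab11a went from place 8 to place 4, where its interval overlapped those of Amn and Cubn at places 5 and 6. The order rests on the longest coding transcript of each gene, from 1.70 kilobases for Amn to 15.46 for Lrp2. Exons of Cubn, Dab2 and Ap2a2 share 368, 211 and 241 bases with genes on the opposite strand, and those of Rab11a share 107 with a microRNA gene on the same strand. The strand setting of the counting is not given in the sources used here, so reads of these stretches cannot be told apart.

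The rest of the uptake pathway was compared through lists of other genes, and medians are log2 ratios. In the list of clathrin coat, adaptors and scission, 12 of 17 genes were lower, against 48.3% of all genes. Lower by 1.5-fold or more was 1 of them, against 13.9% of all genes, and the median was -0.10. With equal totals 3 of the 17 were lower, against 20.3%, and 0 by 1.5-fold or more, against 5.38%. With the scaling used, the range was from Epn1, the endocytic adaptor epsin 1, at -0.59 to Epn2, its paralog, at 0.49. Myo6, the motor that moves coated vesicles inward from the brush border, had the most control reads of the list, with 15227 and 16653 reads and a ratio of -0.46. In the early endosome list, 7 of 13 genes were lower, against 48.3% of all genes, and the median was -0.027. With equal totals 3 of the 13 were lower, against 20.3%. With the scaling used, the lowest gene of the list was Rbsn, encoding the Rab5 effector rabenosyn-5, at -0.71. The highest was Appl1, an adaptor on Rab5 endosomes, at 0.35, and Rab5c had the most control reads and a ratio of -0.51.

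In the recycling list, 13 of 17 genes were lower, against 48.3% of all genes, 2 by 1.5-fold or more, against 13.9%, and 2 were at least 1.5-fold higher, against 21.8%, with a median of -0.22. With equal totals 4 of the 17 were lower, against 20.3% of all genes, and 0 by 1.5-fold or more, against 5.38%. Rab11fip3, an effector of Rab11, was both the lowest and the one with the most control reads, at 17174 against 14783 and a ratio of -0.80, while Rab11a itself was at 0.063. Snx27, the other gene past the threshold, was at -0.59 and was named after its value was seen. The higher pair was Ehd2 and Ehd4.

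In the list of the vacuolar proton pump and endosomal ion exchangers, 17 of 18 genes were lower, against 48.3% of all genes. The list median was -0.33, beside -0.36 for the highest decile of genes by level. Past 1.5-fold were 0 in either direction, against 13.9% of all genes lower and 21.8% higher. With equal totals 5 of the 18 were lower, against 20.3%. In the values as deposited 0 were lower, against 8.34% of all genes, and 0 with the proximal tubule markers set to 0, against 8.86%. With the highest decile of genes set to 0, 8 of the 18 were lower, against 23.3% of all genes. That setting splits the decile evenly, and the list median was 0.033. Clcn3, a relative of Clcn5, was the lowest at -0.56, and Atp6v1a, the catalytic pump subunit, had the most control reads and a ratio of -0.50. Atp6ap2, an accessory subunit, was the highest at 0.10. In the late endosome and lysosome list, 10 of 14 were lower, against 48.3% of all genes. None of the 14 passed 1.5-fold, against 13.9% of all genes lower and 21.8% higher. With equal totals 0 of the 14 were lower, against 20.3%. With the scaling used, the median was -0.16, from Lamp2 at -0.40 to Scarb2 at 0.35, and Lamp1 had the most control reads at -0.35. These are membrane proteins of the late endosome and lysosome. With equal totals, the medians of these 5 lists were all above 0: 0.32 for the coat, 0.39 for the early endosome, 0.20 for recycling, 0.090 for the pump and 0.26 for the lysosome. Some of the genes named for these lists changed sign, among them Lamp1 to 0.065 and Lamp2 to 0.016 with equal totals, and Myo6 to 0.31, Rab5c to 0.26, Atp6v1a to 0.26, Clcn3 to 0.21, Epn1 to 0.18 and Rbsn to 0.061 with the proximal tubule markers set to 0.

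**Figure D4:**
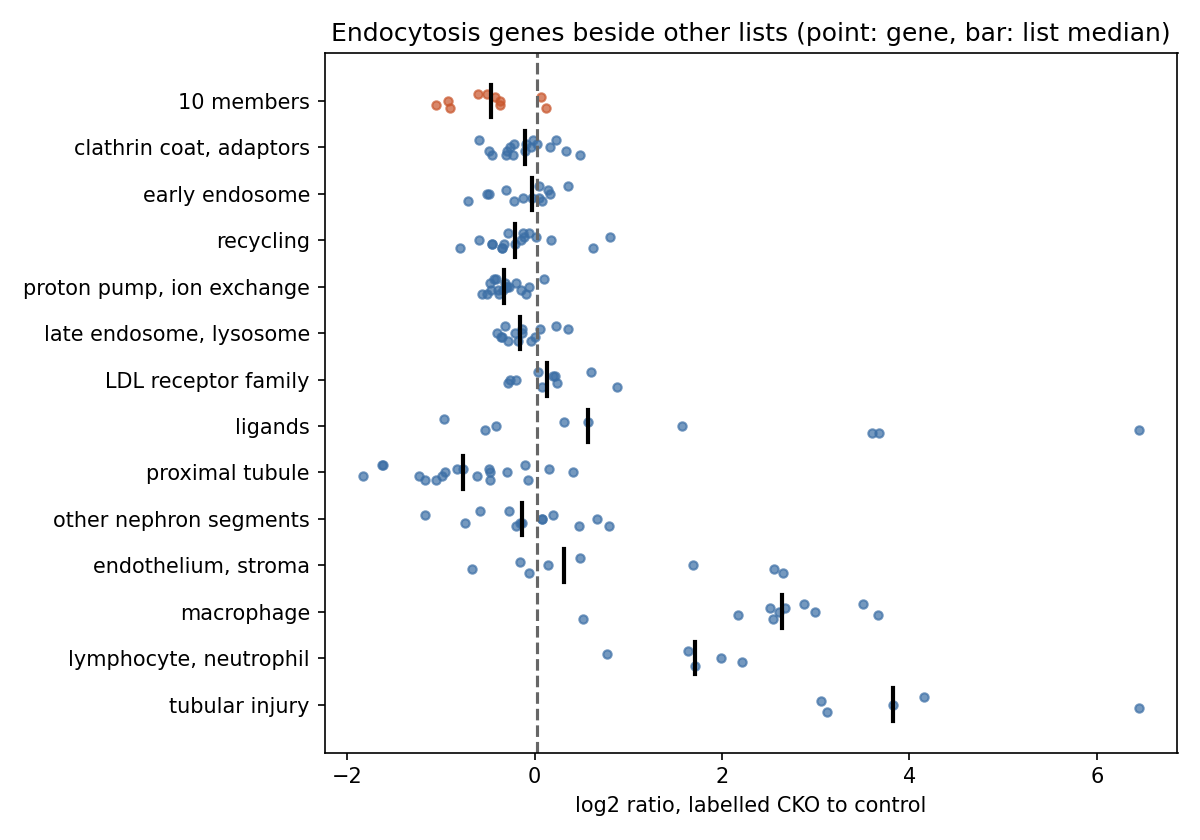
Log2 ratio of each gene of the endocytosis set and of 13 other lists, with a black bar for the list median and a dashed line for the median of all genes. The endocytosis genes, at a median of -0.46, lie between the proximal tubule markers at -0.77 and the proton pump list at -0.33, while macrophage and tubular injury lists lie at 2.64 and 3.82.

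Other receptors of the family of megalin were listed for comparison. Of 10 measured members of the LDL receptor family other than Lrp2, 3 were lower, against 48.3% of all genes, with a median of 0.14. At least 1.5-fold higher were 2, against 21.8% of all genes. With equal totals 0 were lower, against 20.3%, and 5 were at least 1.5-fold higher, against 39.7%, at a median of 0.55. In the values as deposited, 0 were lower, against 8.34%, and 7 were at least 1.5-fold higher, against 48.1%, at a median of 0.71. Lrp1 was the highest, with 2058 control and 5663 CKO reads and a log2 ratio of 0.88, and the other past 1.5-fold was Sorl1 at 0.60, named after its value was seen. Lrp6 was the lowest at -0.28, which became 0.14 with equal totals, and had the most control reads of the list. Lrp1b was not analysed here.

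Among genes for proteins that megalin or cubilin takes up, 3 of 9 were lower, against 48.3% of all genes, with a median of 0.57. At least 1.5-fold higher were 4, against 21.8% of all genes, and the same 4 were at least 2-fold higher. With equal totals 3 were lower, against 20.3%, and 6 were at least 1.5-fold higher, against 39.7%. With a filter of 50 scaled reads, 7 of these genes were left, without Apoa1 (11 and 12 reads) and Ambp (31 and 58), and the median was 1.57. Tcn2, which encodes the vitamin B12 carrier transcobalamin, a megalin ligand, was the lowest and had the most control reads, at 52401 against 40303 and a log2 ratio of -0.96. Lcn2 was the highest at 6.45. The other 3 past 2-fold, named after their values were seen, were Clu at 3.67, Gc at 3.60 and B2m at 1.57. Gc, which encodes the vitamin D binding protein, had 821 control and 14946 CKO reads. These are levels of kidney mRNA, and the amount of each protein that reached the tubule was not measured. Rbp4 and Cblif were not analysed here.

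The endocytosis genes were also set beside markers of the cells that hold the uptake pathway. Of 19 proximal tubule markers, 17 were lower, against 48.3% of all genes, at a median of -0.77. Lower by 1.5-fold or more were 11 of them, against 13.9% of all genes and 31.9% of the highest decile. Their summed reads over all 19 were 1075008 for control and 760965 for CKO. With equal totals 14 were lower, against 20.3% of all genes, 6 of them by 1.5-fold or more, against 5.38%, at a median of -0.35. The median was -0.41 with the highest decile of genes set to 0 and -0.18 in the unscaled deposited values. Acsm2, a medium-chain acyl-CoA synthetase, had the most control reads and the lowest ratio, -1.83, and Slc5a12, a lactate cotransporter, was the highest at 0.41. None of the 19 was at 0 in either library. The proximal tubule markers nearest to Lrp2 in log2 ratio were Keg1 at -0.96, Gatm at -0.83 and Hnf4a at -0.99, over this pair of libraries alone. Within 0.1 of the ratio of Lrp2 there were 495 of the 17469 genes. In whole kidney, fewer proximal tubule cells and less RNA per cell cannot be told apart.

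Relative to Slc34a1, the phosphate cotransporter of the proximal brush border, both receptors took a larger proportion in the library labelled CKO. There were 0.703 Lrp2 reads for each Slc34a1 read in control and 0.843 in CKO, a factor of 1.20 (interval 1.18 to 1.21). For Cubn the values were 0.130 and 0.226, a factor of 1.74 (interval 1.70 to 1.77). Slc34a1 was itself at -1.17, and the direction for Lrp2 depends on the marker taken, since its proportion was larger in CKO against 8 of the 19 proximal tubule markers and smaller against 11. For Cubn these were 14 and 5. With the median of the 19 markers set to 0, the median of the 10 endocytosis genes was 0.30, and Lrp2, Amn and Lrpap1 were the only 3 of them below 0.

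Markers of other cells moved as well. All 10 macrophage markers were higher, 9 of them by at least 1.5-fold, against 21.8% of all genes, and the same 9 by at least 2-fold. The median of the 10 was 2.64, with summed reads of 6722 and 54129. Cd74 had the most control reads, Lyz2 was the highest at 3.66 and Csf1r the lowest at 0.51, and none was at 0 in the control. Of 5 measured lymphocyte and neutrophil markers, the highest was Cd3g at 2.22, and summed reads were 47 and 264. The lowest, S100a8, had 7 and 19 reads and a ratio of 0.77 (interval -0.46 to 2.35), so a difference was not detectable. Without subtraction of the constants, Cd3g was at 1.05, S100a8 at 0.17 and the median of the 5 at 0.69, instead of 1.72. Cd3e, Cd8a and S100a8 had 6, 8 and 7 control reads, so they passed the filter through the library labelled CKO alone. With a filter of 50 scaled reads, Cd3g alone was left. Cd79a, Ms4a1 and Ly6g were not analysed here. Of 8 endothelial and stromal markers, 5 were higher and 3 lower, against 48.3% of all genes lower, with a median of 0.31. Of the 4 endothelial markers 3 were lower, from Kdr at -0.67, which had the most control reads, while all 4 stromal markers were higher, up to Col1a1 at 2.65. With equal totals 1 of the 8 was lower, against 20.3% of all genes. With the proximal tubule markers set to 0, 0 were lower, against 8.86%.

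Of 13 markers of other nephron segments, 7 were lower, against 48.3% of all genes, and 3 with equal totals, against 20.3%. The median was -0.14, which became 0.28 with equal totals. With the scaling used, the range was from Pvalb at -1.17 to Aqp2 at 0.79. Umod, the marker of the thick ascending limb with the most control reads, was at 0.47. All 5 measured injury markers were at least 1.5-fold higher, against 21.8% of all genes, and all 5 were also at least 2-fold higher. Their median was 3.82, from Sox9 at 3.05 to Lcn2 at 6.45, and Spp1 had the most control reads. Without subtraction of the constants, Sox9 was at 1.86 and Lcn2 at 5.36. Krt20 was not analysed here. Macrophages are known to express Dab2 as well, and the part of such cells, and of the proximal tubule markers, in the ratios of the endocytosis genes was not tested.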

How the data were processed

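The authors aligned reads of stranded poly(A) libraries with STAR 2.7.3a to mm10, used HTSeq for counting and DESeq2 for normalization, per the supplementary methods and processing notes. The deposited values, whole numbers that the authors call normalized counts, were classed as a score because no standard unit applies. That they hold reads and an added constant was inferred from the column minimums of 35 and 51. Constants of 34 and 50 were subtracted, CKO reads were multiplied by 0.667, and log2 ratios had a pseudocount of 1. A gene was kept if either library had 10 scaled reads or more, and calls were made at 1.5-fold and 2-fold. Ratios to control had 95% Clopper-Pearson intervals, computed on the share of CKO in the pooled reads of a gene, levels per kilobase had exact Poisson intervals, and ratios between genes had Woolf intervals of the odds ratio. Lengths and positions were from GENCODE M21 (GRCm38). Alternatives were other constants, scalings, pseudocounts (0.1 and 10) and filters (none, or 50 scaled reads). Named genes were the 10 members, Zc3h12b, Havcr1, Lcn2, the highest, lowest and most abundant gene of each list, the 3 proximal tubule markers nearest to Lrp2 and Slc34a1, the reference of 2 ratios between genes. Others were named after their values were seen, as the text says, or because a filter removed them. Members and lists were chosen with earlier results of these data known. The steps were tested on simulated data. Python 3.11.15, numpy 2.4.6, pandas 2.3.3, scipy 1.17.1 and matplotlib 3.10.9 were used.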

Additional observations from a re-analysis of the deposited data

How the results depend on the processing

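The median log2 ratio of the 10 endocytosis genes, -0.46, was -0.046 with equal totals, 0.30 with the proximal tubule markers set to 0, 0.12 with the values as deposited and -0.10 with the highest decile of genes set to 0. The last 2 settings were added after the data were seen. The number at least 1.5-fold lower, 4, was 1 with equal totals, 0 with the proximal tubule markers set to 0, 0 with the values as deposited, 1 with the highest decile set to 0 and 1 at a threshold of 2-fold. With the proximal tubule markers set to 0, the signs of Ehd1 (0.16), Epn1 (0.18), Rbsn (0.061) and Kdr (0.10) were also reversed. These had been called at 1.5-fold, and over all settings 60 other changes of sign were of values that had not been, such as those of Cubn and Clcn5. A change of scaling factor moves all genes by the same amount. Of 598 values recomputed, 344 stayed within a limit, 250 moved beyond it without a reversal of a called value and 4 were reversed. The limit was the counting interval for a gene or a ratio between genes, and 1.5 times for a count. For a median of genes it was the median, over those genes, of the distance from centre to end of the counting interval. Pseudocounts of 0.1 and 10 moved none of the 62 values recomputed with each. No paired analysis was possible because there was a single library on either side.

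With 1 library per group, differences between mice cannot be told apart from differences between groups, and counting intervals do not cover them. The constants and the missing scaling between columns are inferred from the values. Depth limits Zc3h12b, with 47 control reads. The lowest of the 10 endocytosis genes, Ocrl, had 924.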
